A study of Mus musculus with 6 samples.

Results

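Lpl, Cat, Ctsd, Cst3 and Tspo are 5 mouse genes of lipid, redox and lysosome biology that were read out in macrophages before and after exposure to lipopolysaccharide (LPS), a bacterial cell wall component that Toll-like receptor 4 senses. They were taken by symbol and Ensembl identifier from a gene table that lists 56262 identifiers, of which 964 had a read. The genes were selected on their read counts in these same libraries, so every value given for them here is a description of 6 libraries and no test is attached to it.

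The libraries came from a modified TAIL-seq experiment, in which a linker is joined to the 3′ end of RNA and rRNA is depleted. Chosen transcript ends are then amplified by PCR with gene-specific primers. The published methods give forward primers for Zc3h12a and Il6, and none for Lpl, Cat, Ctsd, Cst3 or Tspo. Reads of the latter genes are thus not those of a published target, and how they arose was not tested. The cells were bone marrow-derived macrophages (BMDMs), macrophages grown from mouse bone marrow progenitors, from female C57BL/6J mice aged 7 weeks. Wild-type (WT) cells were compared with cells of Tut7-/- mice (KO), made by CRISPR/Cas9 editing and lacking terminal uridyltransferase 7, which extends RNA ends with uridines. Cells of all groups were grown for 7 days with 20% L929-conditioned medium, kept in 10 ng/ml M-CSF overnight, and then left without LPS (Ctrl) or given LPS for 2 h or 4 h. The 6 groups are thus WT Ctrl, WT LPS 2 h, WT LPS 4 h, KO Ctrl, KO LPS 2 h and KO LPS 4 h, with 1 library each. The submitters speak of duplicates, and the sources used here do not give whether a library pools animals or cultures. No spread between animals can therefore be computed, and the 95% intervals below cover the counting of reads alone.

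Macrophages take up lipoproteins, oxidised lipid and dead cells, and break them down in lysosomes. Lipoprotein lipase, encoded by Lpl, releases fatty acids from triglyceride-rich lipoproteins, catalase (Cat) breaks down hydrogen peroxide in peroxisomes, and cathepsin D (Ctsd) is an aspartic protease of the lysosome. Cystatin C (Cst3) is a secreted inhibitor of cysteine cathepsins, and translocator protein (Tspo) lies in the outer mitochondrial membrane, where it binds cholesterol and the peptide encoded by Dbi.

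Because the assay reads transcript ends, the 30 bases around the last polyadenylation signal of each gene are given 5′ to 3′ as DNA letters of the RNA strand, from GENCODE M21 transcripts on mm10. Capitals mark the signal, which is AATAAA in all of them except Cst3, where it is ATTAAA.
Lpl: atctgctttcAATAAAactgagaacatttt
Cat: ctgcagtaacAATAAAagcgccagcggcca
Ctsd: ttgaaatacaAATAAAgttgttttgggcct
Cst3: gccttgctcaATTAAAaaaaaaaaactcct
Tspo: tttaaagctaAATAAAgtctctaacttcat

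These windows lie in the last exon of each gene, at chr8:68906896-68906925 on the plus strand for Lpl, chr2:103453906-103453935 on the minus strand for Cat and chr7:142375919-142375948 on the minus strand for Ctsd. Those of Cst3 and Tspo are at chr2:148871727-148871756 on the minus strand and at chr15:83574168-83574197 on the plus strand. The signal starts 29, 28, 25 and 26 bases before the annotated transcript end in Lpl, Ctsd, Cst3 and Tspo, and 77 bases before it in Cat. The Cst3 signal runs directly into further adenines that are encoded in the genome. Both forward primers published for this assay, for Zc3h12a and Il6, end in the letters AAATAAA. Those letters, which contain AATAAA, stand in the last 100 bases of the Ctsd and Tspo transcripts and not in those of Lpl, Cat or Cst3. Over 21797 protein-coding genes, one transcript each and the RNA strand only, 26.6% hold AAATAAA there, 61.0% hold AATAAA and 18.9% hold ATTAAA. Over the 261 protein-coding genes with 10 or more reads the shares are 32.2%, 69.3% and 16.5%. Whether such letters bear on the counts was not tested.

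All 5 genes are protein coding. Lpl (ENSMUSG00000015568.16) spans positions 68880491 to 68907448 of chromosome 8, Cat (ENSMUSG00000027187.10) positions 103453849 to 103485160 of chromosome 2, and Cst3 (ENSMUSG00000027447.6) positions 148871722 to 148875692 of the same chromosome. Ctsd (ENSMUSG00000007891.16), at 142375911 to 142388038 of chromosome 7, overlaps the predicted gene Gm49369 on its own strand, and Tspo (ENSMUSG00000041736.7), at 83563592 to 83574203 of chromosome 15, overlaps Mcat on the opposite strand. Both overlapping genes had 0 reads, and the sources used here do not give whether the authors' counting used strand.

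The libraries held 21408 to 56718 reads. In the Ctrl libraries 80.0% to 82.7% of the reads fell on the 10 most abundant genes of the series, one of which is Lpl, and in the LPS libraries 95.4% to 96.4%. The reads left over numbered 4292 to 4507 in Ctrl and 1913 to 2288 after LPS. Because a share depends on the size of the whole pool, each ratio is given with the sum of all reads as the library size and with the sum without those 10 genes. A gene with 0 reads may have had a share of up to 0.00529% to 0.0140%, depending on the library. Read counts measure shares of an amplified pool, and in a bulk sample fewer cells of a kind and less RNA per cell cannot be told apart. The labelled cell type could not be checked from these counts, since 1 of 12 macrophage markers had a read (Lyz2, 2 reads in WT LPS 2 h), with Adgre1, Csf1r and Cd68 at 0, and all the marker lists of the other cell types were at 0. Tut7 itself had 0 reads in every library, so the genotype could not be checked either.

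The 5 genes together had 487 reads in WT Ctrl, 86 in WT LPS 2 h and 178 in WT LPS 4 h, and the KO libraries had 563, 199 and 97 reads in the same order. That is 1.87%, 0.193% and 0.314% of the WT libraries and 2.63%, 0.356% and 0.223% of the KO libraries. Lpl and Cat were low in every LPS library of both genotypes, Cst3 and Ctsd had LPS ratios whose direction changed with the library size against Ctrl, other than Ctsd at LPS 4 h in WT and Cst3 at LPS 4 h in KO, and Tspo followed different courses in WT and KO. Over the 6 libraries Lpl had 794 reads, Tspo 351, Cst3 214, Cat 201 and Ctsd 50, and Ctsd had under 30 reads in each library.

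**Figure D1:**
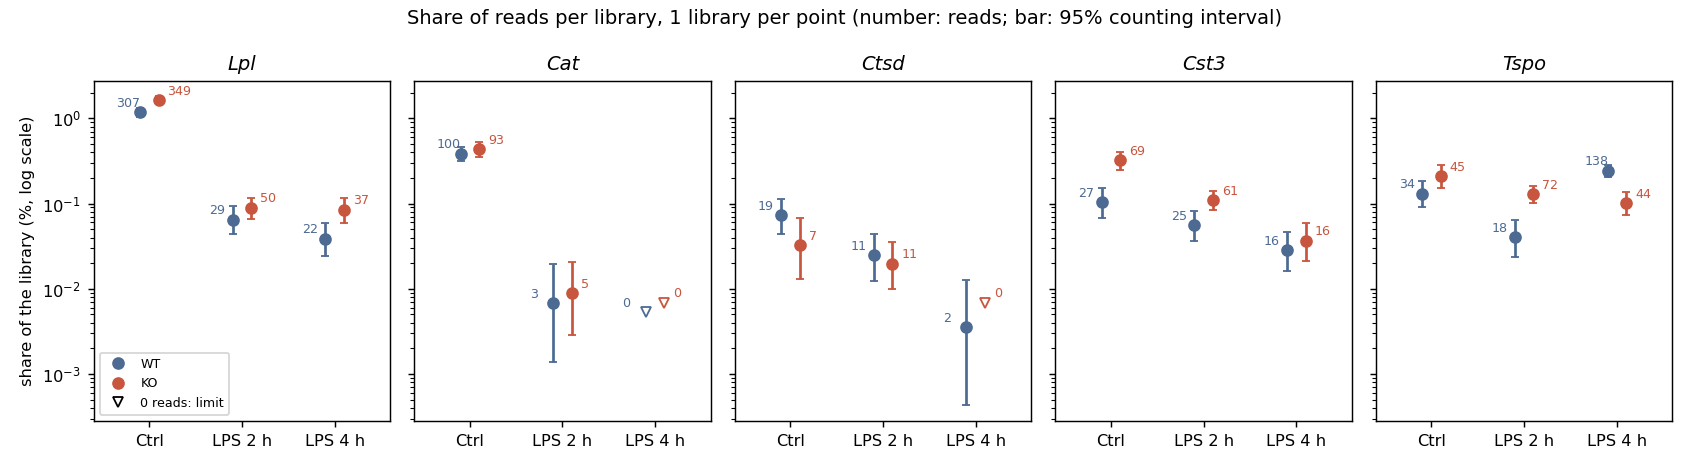
Share of each library (percent, log axis) that fell on Lpl, Cat, Ctsd, Cst3 and Tspo in WT and KO macrophages under Ctrl, LPS 2 h and LPS 4 h, 1 library per point. The number beside a point is its read count, bars are 95% counting intervals, and open triangles are the limits for 0 reads. Lpl and Cat stand far lower in the LPS libraries than in Ctrl in both genotypes, and Tspo is at 138 reads in WT LPS 4 h against 44 in KO LPS 4 h.

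Lpl had 307 reads in WT Ctrl, 29 in WT LPS 2 h and 22 in WT LPS 4 h, and 349, 50 and 37 reads in the matching KO libraries. Its shares were 1.18%, 0.0650% and 0.0388% in WT and 1.63%, 0.0894% and 0.0850% in KO. Both Ctrl libraries were high and all 4 LPS libraries low, with no overlap of intervals between them, while neighbours among the LPS libraries overlapped. Lpl was the gene of rank 8 in WT Ctrl. The LPS 2 h share was 0.0551 times that of Ctrl in WT (95% interval 0.0363 to 0.0807) and 0.0549 times in KO (0.0399 to 0.0739), and the LPS 4 h share was 0.0329 times (0.0203 to 0.0507) and 0.0521 times (0.0361 to 0.0733). Without the 10 most abundant genes the ratios were 0.223 and 0.159 in WT and 0.269 and 0.226 in KO, with every interval still under 1. Lpl was thus lower after LPS under both library sizes. From LPS 2 h to LPS 4 h its share was 0.597 times (0.327 to 1.08) in WT and 0.950 times (0.604 to 1.48) in KO, and both intervals include 1.

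Cat had 100 reads in WT Ctrl, 3 in WT LPS 2 h and 0 in WT LPS 4 h, and 93, 5 and 0 reads in KO. Its shares were 0.384% and 0.00672% in WT Ctrl and LPS 2 h, and 0.434% and 0.00894% in KO. The Ctrl libraries were high, and the LPS libraries were at or near 0 in both genotypes, with no overlap. At LPS 2 h the share was 0.0175 times that of Ctrl in WT (0.00355 to 0.0526) and 0.0206 times in KO (0.00653 to 0.0498). At LPS 4 h it was 72.6-fold lower in WT and 63.05-fold lower in KO with 0 reads set to the floor of 3 reads. The intervals reached up to 0.0172 and 0.0199 times. Without the 10 most abundant genes these values were 15.0-fold and 14.5-fold, with intervals up to 0.0835 and 0.0864 times, and the LPS 2 h ratios were 0.0707 and 0.101. Cat reads thus had a lower share after LPS under both library sizes, and at 4 h none was counted at this depth.

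Cat also fell further than Lpl in the KO pair at 2 h. A ratio of 2 genes in 1 library does not depend on the library size, although reads per gene depend on priming and so such ratios are compared between libraries only. Cat reads per Lpl read went from 0.326 in WT Ctrl to 0.103 in WT LPS 2 h, a change of 0.318 times (0.0607 to 1.06) whose interval includes 1. In KO they went from 0.266 to 0.1, a change of 0.375 times (0.114 to 0.975). At 4 h there were 0 Cat reads beside 22 Lpl reads in WT and 37 in KO, so at most 0.183 and 0.105 Cat reads per Lpl read are allowed by the intervals.

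Ctsd had 19 reads in WT Ctrl, 11 in WT LPS 2 h and 2 in WT LPS 4 h, and 7, 11 and 0 reads in KO. Its shares were 0.0730%, 0.0246% and 0.00353% in WT and 0.0327% and 0.0197% in KO Ctrl and LPS 2 h. Cathepsin D counts were low everywhere, and the intervals of all neighbouring libraries overlapped when ordered by share. Against Ctrl the LPS 2 h share was 0.338 times in WT (0.145 to 0.747) and 0.602 times in KO (0.213 to 1.83). Both turned to higher values without the 10 most abundant genes, at 1.36 times (0.586 to 3.02) and 2.95 times (1.04 to 8.97). The ratio at 2 h has no direction that holds for both library sizes. In WT LPS 4 h the share was 0.0483 times that of Ctrl (0.00546 to 0.200), and 0.234 times (0.0264 to 0.969) without the 10 genes. Against LPS 2 h it was 0.143 times in WT (0.0154 to 0.655). In KO it was 2.85-fold lower with 0 reads set to the floor, with an interval up to 0.512 times. Other library sizes took the WT intervals past 1, to 1.02 without the 9 most abundant genes other than Lpl and 1.04 with TMM factors for LPS 4 h against Ctrl, and to 1.04 with TMM and 1.07 with DESeq2 size factors for LPS 4 h against LPS 2 h. Ctsd had its lowest counts in the LPS 4 h libraries, 2 reads and 0 reads. KO LPS 4 h was not compared with KO Ctrl, because the pair held 7 reads and at least 10 were asked for.

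Cst3, whose protein blocks cysteine cathepsins, had 27 reads in WT Ctrl, 25 in WT LPS 2 h and 16 in WT LPS 4 h, and 69, 61 and 16 reads in KO. Its shares were 0.104%, 0.0560% and 0.0282% in WT and 0.322%, 0.109% and 0.0367% in KO. KO Ctrl was the highest library and stood apart from the next, KO LPS 2 h, and all other neighbours overlapped. Against Ctrl the share was 0.540 times (0.301 to 0.967) at 2 h and 0.272 times (0.137 to 0.523) at 4 h in WT, and 0.338 times (0.236 to 0.485) and 0.114 times (0.0618 to 0.199) in KO. Without the 10 most abundant genes the WT ratios turned to 2.18 times (1.21 to 3.905) and 1.32 times (0.663 to 2.53), and the KO ratio at 2 h to 1.66 times (1.16 to 2.37). Cystatin C thus has no direction after LPS that holds for both library sizes, apart from KO LPS 4 h, where the ratio was 0.495 times (0.268 to 0.863). From 2 h to 4 h Cst3 was lower in KO under both library sizes, at 0.337 times (0.181 to 0.592) and 0.299 times (0.161 to 0.525). In WT the same step was 0.504 times (0.251 to 0.981) and 0.603 times (0.301 to 1.18). The KO ratio over the WT ratio for this step was 0.669 (0.290 to 1.54) and 0.495 (0.215 to 1.14), and both intervals include 1. With TMM factors it was 0.380 (0.165 to 0.876) and with DESeq2 size factors 0.324 (0.141 to 0.746), where the intervals left out 1.

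Tspo had 34 reads in WT Ctrl, 18 in WT LPS 2 h and 138 in WT LPS 4 h, and 45, 72 and 44 reads in KO. Its shares were 0.131%, 0.0403% and 0.243% in WT and 0.210%, 0.129% and 0.101% in KO. The lowest and the highest library were both WT, at 2 h and at 4 h, and the KO libraries lay between them. When ordered by share, WT LPS 2 h stood apart from the next, KO LPS 4 h. All other neighbours overlapped, also WT LPS 4 h and KO Ctrl. Per 1000 reads outside the 10 most abundant genes there were 7.54, 9.41 and 68.01 Tspo reads in WT and 10.5, 31.5 and 21.9 in KO. Against Ctrl the share in WT was 0.309 times (0.164 to 0.562) at 2 h and 1.86 times (1.27 to 2.80) at 4 h, and in KO 0.613 times (0.416 to 0.910) and 0.481 times (0.310 to 0.745). Without the 10 genes all 4 ratios were above 1, at 1.25 (0.663 to 2.27) and 9.02 (6.16 to 13.5) in WT and 3.001 (2.04 to 4.46) and 2.09 (1.35 to 3.24) in KO. Tspo in WT LPS 4 h was the 1 value of the 5 genes that stood above Ctrl under both library sizes.

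Leaving out the 10 genes shifted all log2 ratios of the step from LPS 2 h to LPS 4 h by 0.26 in WT and -0.17 in KO, against 2.01 to 2.29 for LPS against Ctrl. Over all the other library sizes tried, the step was shifted by -0.34 to 0.70 in WT and by -0.34 to -0.15 in KO. Tspo rose 6.03 times over it in WT (3.68 to 10.5) and was 0.785 times in KO (0.527 to 1.16), or 7.23 and 0.696 times without the 10 genes. The KO ratio over the WT ratio was 0.130 (0.0701 to 0.241). For LPS 4 h against Ctrl the KO ratio over the WT ratio was 0.258 (0.147 to 0.452), and for LPS 2 h against Ctrl it was 1.98 (1.003 to 3.92). These comparisons share libraries and so are not independent of each other. Each rests on 4 libraries and says nothing of the spread between animals.

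**Figure D2:**
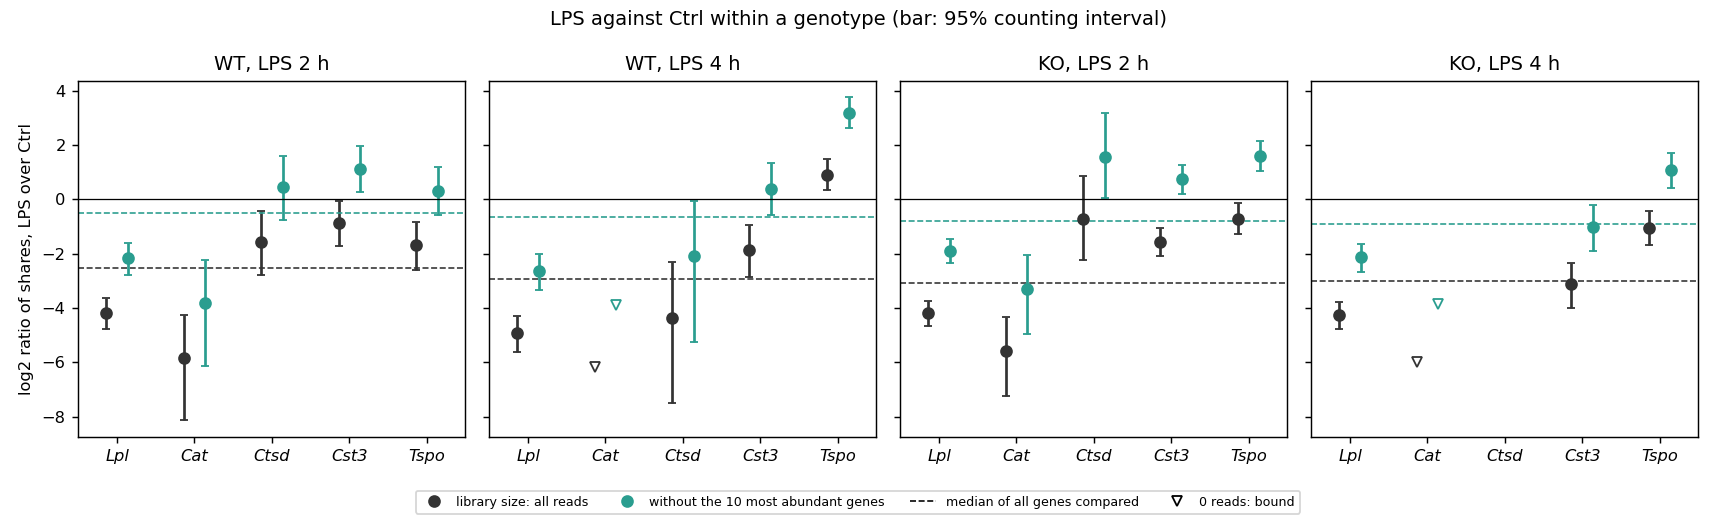
Log2 ratio of shares, LPS over Ctrl, for the 5 genes in WT and KO at 2 h and 4 h, with the sum of all reads (dark) or the sum without the 10 most abundant genes (green) as library size. Bars are 95% counting intervals, open triangles are bounds for 0 reads, and dashed lines are the medians of all genes compared. Lpl and Cat lie below the dashed line of their colour in all 4 panels, and Tspo lies above it.

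Most of the genes compared were lower in the LPS libraries when all reads were the library size. A gene was called lower or higher where its ratio was past 2-fold and its interval left out 1, and a pair of libraries needed at least 10 reads of a gene for it to be compared. For LPS 2 h against Ctrl in WT, 4 of the 5 genes were called lower (all except Cst3) and 0 higher, where 63.6% of the 154 genes compared were called lower and 16.2% higher. At 4 h in WT 4 were called lower (all except Tspo) and 0 higher, beside 66.9% and 11.9% of 151 genes. In KO 3 were called lower at 2 h (Lpl, Cat and Cst3), beside 71.8% of 170 genes, and 4 of 4 at 4 h, beside 75.8% of 157 genes. In those KO comparisons 0 of the 5 genes were called higher, beside 8.24% and 8.92%. Most genes of the series thus had the same direction, and since the 5 genes were chosen with their counts known, nothing is read from these counts.

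When the 10 most abundant genes were left out, calls went both ways. In WT at 2 h Lpl and Cat were called lower and Cst3 higher, beside 23.4% of all genes lower and 31.2% higher. In WT at 4 h Lpl, Cat and Ctsd were called lower and Tspo higher, beside 36.4% and 27.8%. In KO at 2 h Lpl and Cat were called lower and Ctsd and Tspo higher, beside 34.7% and 26.5%, and in KO at 4 h Lpl, Cat and Cst3 were called lower and Tspo higher, beside 36.9% and 24.8%. Lpl and Cat were called lower in all 4 comparisons under both library sizes.

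The place of a gene among all genes compared does not change with the library size. The median log2 ratio over all genes was -2.51, -2.93, -3.08 and -3.02 for WT LPS 2 h, WT LPS 4 h, KO LPS 2 h and KO LPS 4 h, and -0.50, -0.66, -0.79 and -0.90 without the 10 genes. Of the genes compared, 11.04%, 9.27%, 19.4% and 13.4% had a lower ratio than Lpl, and 1.30%, 1.32%, 4.71% and 0.637% a lower ratio than Cat. Catalase was thus among the genes with the lowest ratios in each of these pairs. Genes with 0 reads after LPS are all set to 3 reads, however, and so are ordered by their Ctrl count alone. The place of Cat among them at 4 h follows from its Ctrl count, and nothing is read from it. At 2 h Cat lay near that floor, with 3 reads in WT and 5 in KO. Cst3 had 67.5%, 66.2%, 68.8% and 43.3% of genes below it and Tspo 59.7%, 83.4%, 75.3% and 76.4%. Ctsd had 61.0% and 16.6% below it in WT and 74.7% at 2 h in KO.

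Read against Lpl in the same library, Cst3 and Tspo moved up after LPS in both genotypes. Most genes compared would do so, since 11.04% and 9.27% had a lower LPS ratio than Lpl in WT at 2 h and 4 h. In KO these were 19.4% and 13.4%. Nothing is therefore read from the direction. Cst3 reads per Lpl read were 0.0880 in WT Ctrl, 0.862 in WT LPS 2 h and 0.727 in WT LPS 4 h, and 0.198, 1.22 and 0.432 in KO. Against Ctrl that is a change of 9.80 times (4.76 to 20.0) and 8.27 times (3.58 to 18.6) in WT, and of 6.17 times (3.81 to 9.96) and 2.19 times (1.07 to 4.29) in KO. Tspo reads per Lpl read were 0.111, 0.621 and 6.27 in WT and 0.129, 1.44 and 1.19 in KO. Their change against Ctrl was 5.60 times (2.63 to 11.7) at 2 h and 56.6 times (30.9 to 105) at 4 h in WT, and 11.2 times (6.75 to 18.5) and 9.22 times (5.20 to 16.3) in KO. The 5 genes thus did not move by a common factor. Ctsd reads per Lpl read rose at 2 h by 6.13 times (2.37 to 15.0) in WT and 10.97 times (3.65 to 34.7) in KO, and at 4 h in WT the change was 1.47 times (0.156 to 6.76). A ratio of this kind shows unequal change, and not which of the genes moved.

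**Figure D3:**
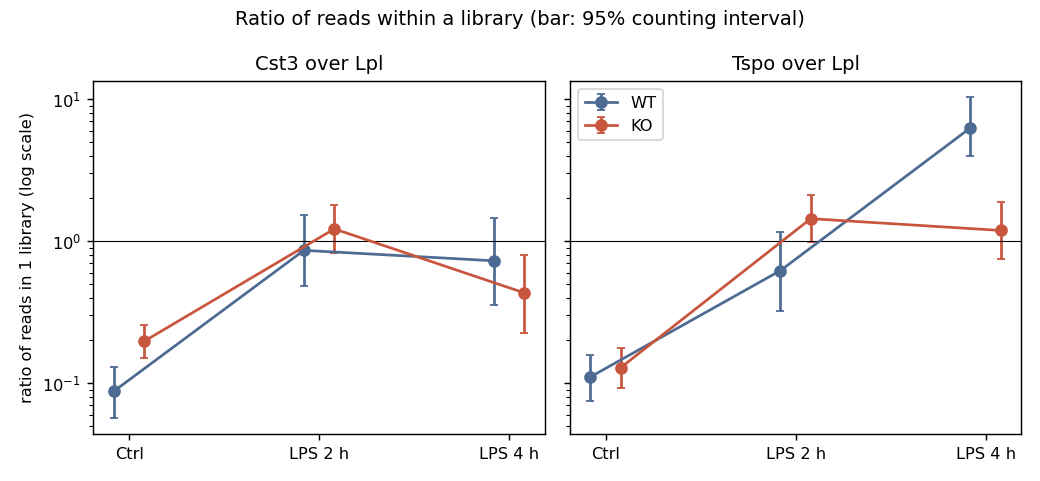
Reads of Cst3 (left) and Tspo (right) per read of Lpl in the same library (log axis), for WT and KO under Ctrl, LPS 2 h and LPS 4 h, 1 library per point with 95% counting intervals. Both ratios are higher after LPS than in Ctrl in both genotypes, and Tspo over Lpl reaches 6.27 in WT LPS 4 h against 1.19 in KO LPS 4 h. Most genes compared had a higher LPS ratio than Lpl.

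For the genotypes, the 2 Ctrl libraries were compared first. Of the 5 genes 1 was called higher in KO Ctrl (Cst3) and 0 lower, where 36.1% of the 191 genes compared were called higher and 23.0% lower. Without the 10 most abundant genes 1 was called higher (Cst3) and 1 lower (Ctsd), beside 35.1% and 27.2%. The Cst3 share in KO was 3.11 times that in WT (1.965 to 5.04), and 2.68 times (1.70 to 4.36) without the 10 genes. Lpl stood at 1.38 times (1.18 to 1.62) and 1.19 times (1.02 to 1.40), with the interval above 1 and the ratio under 2-fold. Cat was at 1.13 times (0.843 to 1.51), an interval that includes 1. Tspo was at 1.61 times (1.01 to 2.59), or 1.39 times (0.871 to 2.24) without the 10 genes. Ctsd, on 7 and 19 reads, was at 0.448 times (0.159 to 1.11), and its ratio of 0.387 (0.137 to 0.961) without the 10 genes was called lower.

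At LPS 2 h 1 gene was called higher in KO (Tspo) and 0 lower, beside 25.2% and 31.3% of 115 genes. Without the 10 genes 2 were called higher (Tspo and Cst3) and 0 lower, beside 27.8% and 31.3%. Tspo was at 3.19 times the WT share (1.88 to 5.69), and at 3.34 times without the 10 genes. Cst3 was at 1.95 times (1.20 to 3.24), and at 2.04 times (1.26 to 3.39) without the 10 genes, which passes 2-fold. Lpl at 1.38 times (0.854 to 2.25) and Ctsd at 0.798 times (0.314 to 2.03) had intervals that include 1. Cat had 8 reads in the pair and was not compared.

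At LPS 4 h 1 gene was called higher in KO (Lpl) and 1 lower (Tspo) of the 3 compared, beside 33.0% and 27.8% of 97 genes. Without the 10 genes 0 were called higher and 1 lower (Tspo), beside 28.9% in each direction. Tspo in KO was at 0.415 times the WT share (0.289 to 0.587), and at 0.322 times (0.224 to 0.455) without the 10 genes. Lpl, on 37 and 22 reads, was at 2.19 times (1.26 to 3.899), and at 1.70 times (0.976 to 3.02) without the 10 genes, where the interval includes 1. Cst3 had 16 reads in each and was at 1.30 times (0.610 to 2.78). Tspo was thus higher in KO at 2 h and lower in KO at 4 h under both library sizes. Of the genes compared, 77.4% at 2 h and 30.9% at 4 h had a lower ratio of KO to WT than Tspo. Lpl had the larger share in KO at each time, with an interval that left out 1 in Ctrl and at 4 h.

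**Figure D4:**
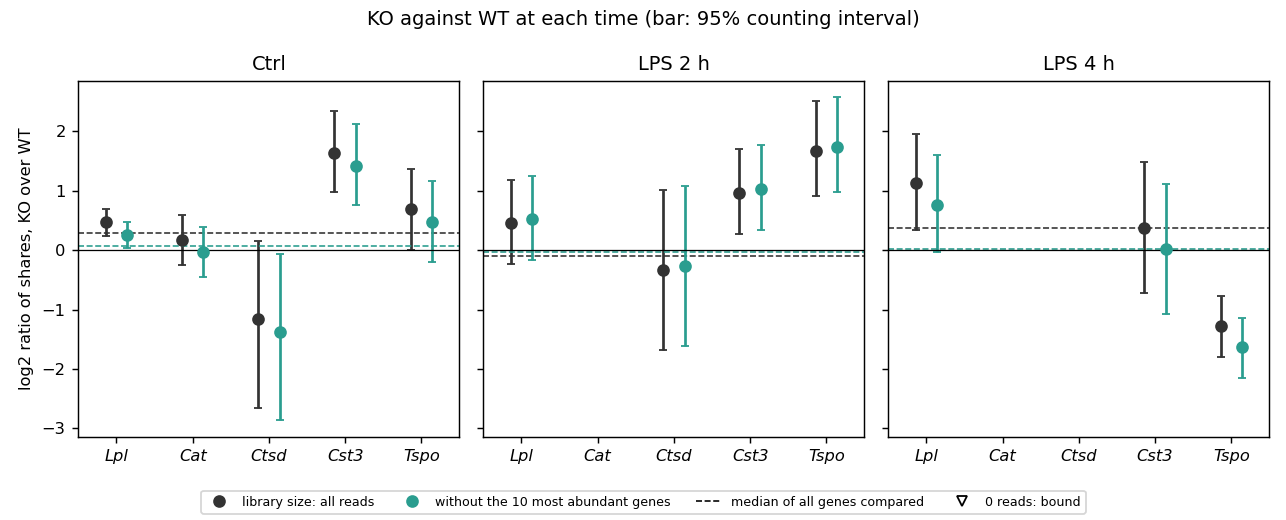
Log2 ratio of shares, KO over WT, for the 5 genes in Ctrl, LPS 2 h and LPS 4 h, with the sum of all reads (dark) or the sum without the 10 most abundant genes (green) as library size. Bars are 95% counting intervals and dashed lines are medians of all genes compared, and a gene with under 10 reads in a pair has no point. Cst3 is above 0 in Ctrl and at LPS 2 h, and Tspo is above 0 at LPS 2 h and below 0 at LPS 4 h.

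The LPS ratios of the other genes were also set side by side between genotypes. For Lpl the KO ratio over the WT ratio was 0.996 (0.614 to 1.61) at 2 h and 1.59 (0.915 to 2.75) at 4 h, and both intervals include 1. Some other library sizes gave intervals that left out 1. These were 1.73 (1.07 to 2.80) at 2 h with DESeq2 size factors and 1.75 (1.01 to 3.04) at 4 h without Zc3h12a and Il6. For Cst3 the KO ratio over the WT ratio was 0.627 (0.329 to 1.19) at 2 h and 0.419 (0.184 to 0.955) at 4 h, the latter interval reaching 1.06 without Zc3h12a and Il6. The lower value at 4 h goes with the higher Cst3 count of KO Ctrl, 69 against 27 reads, since both 4 h libraries had 16 reads. For Ctsd at 2 h it was 1.78 (0.535 to 5.94), an interval that spans either direction.

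From LPS 2 h to LPS 4 h 1 of 4 genes compared was called lower in WT (Ctsd) and 1 higher (Tspo), beside 41.7% and 22.3% of 103 genes. In KO 2 of 4 were called lower (Ctsd and Cst3) and 0 higher, beside 33.6% and 26.2% of 107 genes. Without the 10 most abundant genes the same genes were called, beside 37.9% lower and 24.3% higher over all genes in WT and 35.5% and 25.2% in KO.

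Few other genes of the same pathways were detected by this assay. Of 28 genes of lipid uptake, storage and efflux, 7 had a read. Of those compared, 3 of 3 were called lower in WT at 2 h and at 4 h and 2 of 2 in KO at each time, where 63.6%, 66.9%, 71.8% and 75.8% of all genes compared were called lower. With the 10 most abundant genes left out, 2, 2, 0 and 1 were called lower, beside 23.4%, 36.4%, 34.7% and 36.9% of all genes. Lipa, the lysosomal acid lipase, had 48 reads in WT Ctrl, 2 in WT LPS 2 h and 7 in WT LPS 4 h, and 47, 25 and 5 in KO. Its LPS 2 h share was 0.0243 times Ctrl (0.00286 to 0.0927) in WT and 0.204 times (0.120 to 0.338) in KO, or 0.0982 and 0.998 times without the 10 genes. Abca1, which moves cholesterol out of the cell, had 38 reads in WT Ctrl, 10 in KO Ctrl and 0 in all 4 LPS libraries. Abca1 was thus seen in Ctrl alone. Of 12 genes of lipid synthesis 2 had a read, led by the regulator Srebf1 with 12 reads in KO Ctrl and 0 elsewhere.

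Among 24 antioxidant enzymes and regulators 3 had a read. Nfe2l2, the regulator of the oxidative stress response, had 10 reads in WT Ctrl and 37 in KO LPS 2 h, and 0 in the other 4 libraries. Prdx5, a peroxiredoxin that like catalase removes hydrogen peroxide, had 10, 20 and 14 reads in WT and 28, 7 and 20 in KO. In WT Nfe2l2 thus went from 10 reads in Ctrl to 0 in both LPS libraries. With all reads as the library size it was called lower there, as Cat was. Without the 10 most abundant genes Nfe2l2 was not called at either time, with intervals up to 1.05 times at 2 h and 0.991 times at 4 h. Prdx5 in WT and both genes in KO did not share the course of Cat. None of 13 other peroxisome genes had a read, and 2 of 8 oxidant-producing enzymes had at most 1 read in a library. Of 12 other lysosomal proteases, cathepsin B (Ctsb) alone had reads, 4, 3 and 1 in WT and 13, 0 and 0 in KO. Of 25 further lysosome genes 6 had a read, with at most 6 reads in a library in all. The other cystatins and stefins, 16 listed and 14 of them in the annotation, had 0 reads. Of 17 mitochondrial outer membrane genes and TSPO partners, Dbi alone had reads, with 13, 3 and 0 in WT and 8, 1 and 3 in KO. Srebf1, Prdx5, Ctsb and Dbi were named after their counts had been seen.

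The LPS-induced list went the other way. Of 26 such genes 11 had a read, and 5 were compared after LPS in each genotype. Of these 4 were called higher and 0 lower in each of the 4 comparisons with Ctrl, beside 16.2%, 11.9%, 8.24% and 8.92% of all genes called higher. With the 10 most abundant genes left out, all 5 were called higher, beside 31.2%, 27.8%, 26.5% and 24.8%. These 5 genes are themselves among the 10 left out. Their reads are thus set against a sum that excludes them and is smaller after LPS, and nothing is read from those calls. The sum of the list took 51.8% of WT Ctrl and 47.7% of KO Ctrl, and 69.97% to 78.2% of the LPS libraries. Zc3h12a, which encodes the RNase Regnase-1 and is a target of the amplification, made up most of this sum, at 49.1%, 62.5% and 52.3% of the WT libraries and 45.1%, 60.1% and 53.6% of the KO libraries. It was the 1 gene of the 5 not called higher with all reads, its share being 1.07 to 1.33 times that of Ctrl. The part of the larger sum in the lower shares of Lpl, Cat and the other genes was not tested, and the ratios within a library and the places among all genes given above do not depend on it.

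The genes whose counts ran most like each member over the 6 libraries were taken from those with 30 or more reads in a library. The measure was the SD of the log2 ratio of the counts, with 0.5 read added, which does not depend on library size. For Lpl they were Ccny, Tlk1 and Vim, with SDs of 0.73, 0.77 and 0.79, where the median over 68 genes was 1.99. Vim, the intermediate filament vimentin, had 3760, 638 and 620 reads in WT and 2097, 798 and 812 in KO. For Cat they were Fam214a, Fnip1 and Abca1, with SDs of 1.23, 1.54 and 1.57 and a median of 2.996. For Cst3 they were Mfhas1, Ints2 and Lcp1, at 0.63, 0.66 and 0.93 with a median of 2.11. For Ctsd they were Gpr65, mt-Atp6 and Mosmo, at 0.86, 0.93 and 1.04 with a median of 2.45 over 69 genes. Tspo was closest to Ints2, at 0.85, and CT010467.1 was the third closest at 0.98, with a median of 2.41. Ints2, a subunit of the Integrator complex, had 19, 15 and 27 reads in WT and 51, 45 and 27 in KO. Among the 5 genes the closest pair was Cst3 and Tspo, with an SD of 1.38, and the most unlike was Cat and Tspo, at 3.9. Lpl and Cat, both low in every LPS library, had an SD of 1.88.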

How the data were processed

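The deposited tables held raw read counts per Ensembl gene, 1 table per library and 6 in all, which the authors made by aligning reads with HISAT2 to mm10. The sources used here do not give the gene counter, its use of strand or any removal of PCR duplicates. Without molecular identifiers, PCR reads cannot be taken as independent molecules, so intervals cover counting error only. The third column of the tables labels some genes by name and was not used. The authors' lists of single Il6 reads were not used, and 0 columns of per-sample values were left aside. Titles gave the genotype and time of each library. Libraries held 21408 to 56718 reads. All 964 identifiers with a read were matched to GENCODE M21, 935 of them with the version number and the rest without it.

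Shares have Clopper-Pearson intervals and ratios of shares have exact conditional binomial intervals (95%, scipy 1.17.1). The ratio of KO and WT ratios has an interval from the counting error of 4 libraries on the log scale, given where each count was 5 or more. Library sizes were sums of all counts, and a count of 0 was set to a floor of 3 reads in folds and medians. A gene was called past 2-fold with an interval that left out 1, if a pair of libraries held at least 10 of its reads. With 1 library per group no model with p-values was fitted. TMM factors (edgeR 4.0.16) and size factors (DESeq2 1.42.0, in R 4.3.3), computed from the deposited counts, were used as other library sizes only. The calculations were tested on simulated data.

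Named genes were the 5 members, up to 4 genes per list with the most reads among those with 30 or more reads in a library, and the 3 genes most like each member. One of the latter, for Tspo, is not reported here. The members and the 18 lists were chosen with earlier results of these data known. Alternatives were library sizes without the 10 most abundant genes, without Zc3h12a and Il6, with TMM or DESeq2 factors, a minimum of 30 reads or none, and no minimum fold. A library size without the 9 most abundant genes other than Lpl was added after seeing the data.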

Additional observations from a re-analysis of the deposited data

Results flagged for a closer look

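Tspo was singled out because its ratio lay above 1 in WT and below 1 in KO. Its share at LPS 4 h was 1.86 times that of Ctrl in WT and 0.481 times in KO, and from LPS 2 h to LPS 4 h it was 6.03 times in WT and 0.785 times in KO. The interval of the latter, 0.527 to 1.16, includes 1, so no move in KO was shown for that step. The first contrast holds for the sum of all reads alone, since without the 10 most abundant genes both genotypes stood above Ctrl, at 9.02 and 2.09 times. The intervals of the KO ratio over the WT ratio left out 1, and a difference between genotypes was not tested over animals, because each value is 1 library. Both contrasts share the LPS 4 h libraries.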

How the results depend on the processing

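No paired analysis was possible because each group had 1 library and the labels carry no replicate numbers, and for the same reason no replicate was left out. Depth limits which genes can be compared, and Ctsd, with 50 reads in all, is the least certain. Its WT call at LPS 4 h against Ctrl was lost without the 9 and with TMM, and that at LPS 4 h against 2 h with TMM and DESeq2. Lpl and Cat were called lower after LPS in all 4 comparisons with Ctrl under each of the 8 alternatives.

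Counts of members called changed as given below, where changes by 1 call from 3 or more are left out. With other library sizes, those left out were all in genes called lower. At LPS 2 h in KO it was 2 under each of them, against 3. It was 3, against 4, at LPS 2 h in WT without Zc3h12a and Il6, and at LPS 4 h in WT without the 10 and with DESeq2. At LPS 4 h in KO it was 3 without the 10, without Zc3h12a and Il6, and with TMM or DESeq2, against 4. LPS 2 h in WT: 2 lower without the 10 or the 9 most abundant genes and with TMM or DESeq2 factors, against 4, and 1 higher without the 10 or the 9, against 0. LPS 4 h in WT: 2 lower without the 9 and with TMM, against 4, and 1 higher without the 10, the 9 or Zc3h12a and Il6, with TMM or DESeq2, and with no minimum fold, against 0. LPS 2 h in KO: 2 higher without the 10 or the 9 and with DESeq2, and 1 with TMM, against 0. LPS 4 h in KO: 2 lower without the 9, against 4, and 1 higher without the 10 or the 9 and with DESeq2, against 0. LPS 4 h against 2 h in WT: 3 lower without Zc3h12a and Il6, 2 with no minimum fold, and 0 with TMM, DESeq2 or a minimum of 30 reads, against 1. LPS 4 h against 2 h in KO: 1 lower with a minimum of 30 reads, against 2. KO against WT in Ctrl: 1 lower without the 10 or the 9 and with TMM or DESeq2, against 0, and 3 higher with no minimum fold, against 1. At LPS 2 h: 2 higher without the 10 or the 9 and with no minimum fold, and 3 with DESeq2, against 1. At LPS 4 h: 0 higher without the 10 or the 9 and with TMM or DESeq2, against 1.

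Log2 ratios of members that changed direction are given in the order without the 10, without the 9, TMM, DESeq2. For LPS against Ctrl they were 0.45, 0.52, 0.15 and 0.047 for Ctsd, 1.13, 1.20, 0.83 and 0.72 for Cst3, and 0.32, 0.39 and 0.019 (not DESeq2) for Tspo in WT at 2 h, and 0.40, 0.48, 0.50 and 0.44 for Cst3 in WT at 4 h. In KO they were 1.56, 1.64, 1.24 and 1.68 for Ctsd, 0.73, 0.81, 0.41 and 0.85 for Cst3 and 1.59, 1.67, 1.26 and 1.70 for Tspo at 2 h, and 1.06, 1.15, 0.76 and 1.01 for Tspo at 4 h. For KO against WT they were -0.034, -0.052, -0.040 and -0.010 for Cat in Ctrl, 0.28 for Ctsd at 2 h with DESeq2, and -0.40 and -0.056 for Cst3 at 4 h with TMM and DESeq2. The log2 difference between genotypes of the LPS 2 h ratio turned to 0.27 without the 10, 0.25 with TMM and 0.79 with DESeq2 for Lpl, and to 0.12 with DESeq2 for Cst3, and that of the step from 2 h to 4 h to -0.14 with TMM and -0.38 with DESeq2 for Lpl. Tspo at LPS 4 h against Ctrl in WT kept its direction under every alternative, as did its step from 2 h to 4 h in both genotypes.

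Other library sizes moved the median of all genes for LPS against Ctrl by 1.61 to 2.41 on the log2 scale with TMM, DESeq2 or without the 10, and that for KO against WT by -0.78 to 0.61. Within a comparison such a shift is the same for every gene. The number of genes called lower at LPS 2 h in WT was 98, and 36, 57 and 65 without the 10, with TMM and with DESeq2, and the number called higher 25, and 48, 42 and 40. At LPS 4 h it was 101 lower and 55, 42 and 55, and 18 higher and 42, 42 and 42. In KO at 2 h it was 122 lower and 59, 78 and 51, and 14 higher and 45, 40 and 46, and at 4 h 119 lower and 58, 77 and 59, and 14 higher and 39, 36 and 37. All 49 ratios of 2 members within a library stayed inside their counting intervals with 0.5 read added, and changes of these ratios between libraries were not repeated this way.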
